A study of Homo sapiens with 3 samples.

Results

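The genes of condensin and of topoisomerase II, 10 of the 19208 genes on the arrays, were examined in LNCaP cells treated with n-butylidenephthalide (BP). They were chosen by name from the gene symbols of the deposited annotation. The rule used no measured value, but earlier results of these data were known when the genes were chosen. They comprise the topoisomerase II genes TOP2A and TOP2B, the shared ATPase subunits SMC2 and SMC4, the condensin I subunits NCAPD2, NCAPG and NCAPH, and the condensin II subunits NCAPD3, NCAPG2 and NCAPH2. After 24 h of BP, 8 of the 10 genes lay 2-fold or more below the control array, as did 2.11% of all genes, with TOP2A and NCAPG each near 15% of their control signal, while TOP2B and NCAPH2 lay close to the control value. After 3 h none of the 10 genes was past 2-fold in either direction, where 0.344% of all genes were higher and 0.0469% lower.

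LNCaP is an established cell line from human prostate cancer, and it responds to androgen. The data are 3 Affymetrix Human Gene ST arrays, 1 each of control LNCaP cells, of a culture given BP at 70 µg/ml for 3 h and of a culture given the same dose for 24 h, and the treated cells had attached to the dish for 24 h before BP was added. The label of the control array names no treatment and no harvest time, while the title of the series names DMSO or BP, so it is not settled whether the control cells received DMSO or when they were collected. An effect of BP therefore cannot be told apart from an effect of culture time or density. With 1 array per condition nothing could be tested, so there are no p-values and no difference has a replicate check. Precision is limited by the number of arrays.

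Each value is the deposited log2 value of a transcript cluster, which summarises probes spread along a transcript. Differences are BP minus control on the log2 scale, and a gene was called higher or lower when it was at least 2-fold above or below the array it was compared with. The medians over all 33297 clusters were 5.475, 5.464 and 5.479 on the control, 3 h and 24 h arrays. Many genes, 41.1% at 3 h and 46.7% at 24 h, had exactly the control value. How these equal values arose was not tested, so they are not taken as a measured lack of change. RNA of whole cultures was measured, so fewer dividing cells and less RNA per cell cannot be told apart. All 8 measured LNCaP markers of 9 listed, among them KLK3 and KRT8, had a value above the median of the control array, and 6 of these 8 were at least 2-fold lower at 24 h, where 2.11% of all genes were, with KLK3 the lowest at -2.78. The keratin genes KRT8 and KRT18, the other two, had differences of 0.94 and 0.11. Of 5 markers of the PC-3 and DU-145 lines none was past 2-fold of control at either time. Among all genes 0.344% were higher and 0.0469% lower at 3 h, and 1.53% higher and 2.11% lower at 24 h. With shares this small, the count cannot set these 5 markers apart from other genes. The 24 h values of CD44, CAV1 and GSTP1 were also among the equal values described above. VIM, GSTP1 and LCN2 lay above the median of the control array on that array, with log2 values of 6.00, 5.69 and 5.89, and 24 h differences of 0.30, 0.00 and 0.65, and LCN2 was higher by 1.01 at 24 h than at 3 h. CD44 and CAV1 lay below that median on all 3 arrays, at 3.98 and 4.06 on each. The part of these marker differences in the results was not tested.

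Condensin is a ring-shaped motor that folds chromatin into loops and compacts the chromosomes for mitosis. Its core is the SMC2 and SMC4 pair of ATPases, closed by a kleisin subunit (NCAPH in condensin I, NCAPH2 in condensin II) that carries a pair of HEAT-repeat subunits (NCAPD2 and NCAPG, or NCAPD3 and NCAPG2). Condensin II is in the nucleus through interphase and starts compaction in prophase, while condensin I reaches the chromosomes once the nuclear envelope breaks down. Topoisomerase II passes a DNA duplex through a transient break in another and so untangles sister chromatids, and it is the target of etoposide and doxorubicin. TOP2A is made mainly in dividing cells from S phase to mitosis, and TOP2B is also made in cells that do not divide and acts in transcription.

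The promoters of these genes are shown first, because genes that peak in G2 and mitosis often carry in them the cell cycle genes homology region (CHR), with the letters TTTGAA or, less often, TTCGAA, and also CCAAT boxes. In a table of RefSeq promoters of assembly GRCh38.p14, with 250 bases before and 50 bases after the start of each transcript, 9 of the 10 genes were found, with 13 windows in all. NCAPH2 was not matched. The 250 bases before the start are given for 4 genes that were lower at 24 h, TOP2A, NCAPD2, NCAPG and SMC4, and for TOP2B, which was not. Capitals mark every match on either strand to the CHR letters, to the CCAAT box and to the E2F letters TTCCCGC or the related TTGGCGC. A match on the other strand reads TTCAAA for the CHR, ATTGG for the CCAAT box and GCGGGAA for the first E2F form.
TOP2A, chr17:40417897-40418146, minus strand: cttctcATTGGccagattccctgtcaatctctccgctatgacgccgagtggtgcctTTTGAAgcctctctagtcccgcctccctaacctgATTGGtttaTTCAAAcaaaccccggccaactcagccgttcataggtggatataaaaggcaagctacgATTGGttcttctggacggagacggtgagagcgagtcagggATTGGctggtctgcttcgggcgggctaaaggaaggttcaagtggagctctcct
NCAPD2, chr12:6493852-6494101, plus strand: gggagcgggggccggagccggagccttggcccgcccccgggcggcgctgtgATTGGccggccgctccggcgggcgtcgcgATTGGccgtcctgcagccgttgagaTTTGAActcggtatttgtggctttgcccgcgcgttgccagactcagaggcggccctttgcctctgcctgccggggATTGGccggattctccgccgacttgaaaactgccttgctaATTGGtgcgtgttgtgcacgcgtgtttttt
NCAPG, chr4:17810729-17810978, plus strand: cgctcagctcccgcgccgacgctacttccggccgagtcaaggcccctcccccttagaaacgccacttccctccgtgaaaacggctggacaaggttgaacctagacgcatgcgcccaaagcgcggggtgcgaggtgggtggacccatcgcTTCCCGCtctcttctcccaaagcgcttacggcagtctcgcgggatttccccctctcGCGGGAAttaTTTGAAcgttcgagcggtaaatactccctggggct
SMC4, chr3:160399400-160399649, plus strand: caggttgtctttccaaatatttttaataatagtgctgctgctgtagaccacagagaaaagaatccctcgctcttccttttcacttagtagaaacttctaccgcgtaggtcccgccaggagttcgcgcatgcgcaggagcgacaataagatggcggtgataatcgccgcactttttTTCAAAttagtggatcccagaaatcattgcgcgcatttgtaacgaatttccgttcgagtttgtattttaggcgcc
TOP2B, chr3:25664908-25665157, minus strand: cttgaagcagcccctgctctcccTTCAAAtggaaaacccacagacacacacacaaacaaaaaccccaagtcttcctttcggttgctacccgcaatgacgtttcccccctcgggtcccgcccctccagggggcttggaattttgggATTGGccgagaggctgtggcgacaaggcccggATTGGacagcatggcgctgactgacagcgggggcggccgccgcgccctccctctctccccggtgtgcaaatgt

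The TOP2A promoter held 2 TTTGAA matches, with first bases at positions -194 and -151 counted from the start, and 4 CCAAT boxes, the latter all in the reverse orientation. That of NCAPD2 held 1 TTTGAA match at -145 and also 4 reversed CCAAT boxes. That of NCAPG held TTTGAA at -35 with a reversed TTCCCGC beside it at -45 and a further TTCCCGC at -101, and no CCAAT box. That of SMC4 held 1 reversed TTTGAA at -75 and none of the other letters searched. Elsewhere, TTTGAA began at -3 in SMC2 and in NCAPD3 and at 36 bases into the transcript in NCAPG2.

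TTTGAA was found in 8 of the 13 windows of these genes and in 15.2% of the 35116 windows in the table, and by gene in 8 of 9 against 18.2% of 27305 genes. The match does not follow the array values gene by gene. TOP2B, within 2-fold at 24 h, held 1 reversed TTTGAA at -227 and 2 reversed CCAAT boxes, and NCAPH, which was lower, held a CCAAT box at -112 and no CHR letters. TTCGAA was found in 0 of the 13 windows and in 1.45% of all windows. CCAAT was found in 5 of the 13 windows against 34.6%, and TTCCCGC in 2 of the 13, those of NCAPG and NCAPD3, against 6.55%. The longer E2F form TTTCCCGC, which contains TTCCCGC, was found in 1 window, that of NCAPD3, against 1.63%. TTGGCGC and its longer form TTTGGCGC were found in 0 of the 13 windows against 3.04% and 0.652%. These are matches of letters and not measured binding sites.

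The topoisomerase II genes parted at 24 h. TOP2A, represented by transcript cluster 8014974 in cytoband 17q21-q22, had a log2 value of 8.47 on the control array, 8.49 on the 3 h array and 5.79 on the 24 h array. The control and 3 h arrays were thus almost level, and the 24 h array stood apart below both. Its difference was 0.02 at 3 h and -2.68 at 24 h, which is a 6.39-fold lower signal and 15.7% of the control signal, and it ranked 24 from the lowest of all 19208 genes at 24 h.

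TOP2B, represented by cluster 8085815 in cytoband 3p24, had log2 values of 8.34, 8.53 and 8.16 on the same arrays in turn. Its highest value was that of the 3 h array, and its difference was 0.19 at 3 h and -0.18 at 24 h, which is 88.5% of the control signal. The 24 h difference of TOP2A was lower than that of TOP2B by 2.50 on the log2 scale, as TOP2A minus TOP2B came to -2.50, against -0.17 at 3 h.

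**Figure D1:**
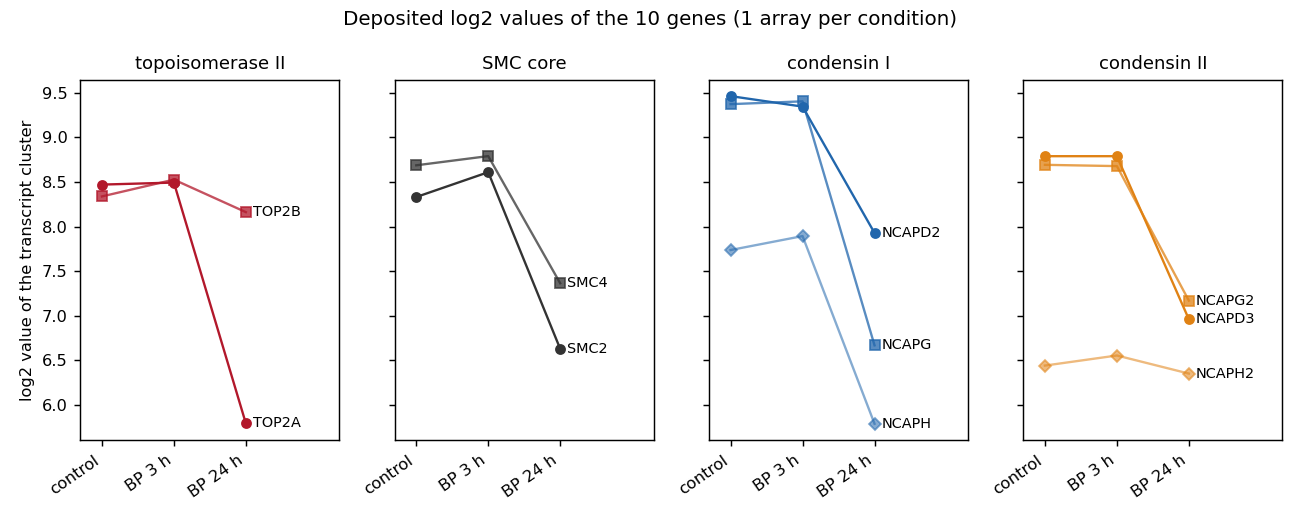
Deposited log2 value of the transcript cluster (vertical axis) of the 10 genes on the control, BP 3 h and BP 24 h arrays (horizontal axis), 1 panel for each of topoisomerase II, the SMC core, condensin I and condensin II. Each marker is 1 array, and lines join the arrays of a gene. Lines stay nearly level from control to 3 h and drop at 24 h for all genes but TOP2B (8.16 at 24 h) and NCAPH2 (6.35 at 24 h).

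The ATPases of the condensin core, which serve both complexes, were both lower at 24 h. SMC2, represented by cluster 8156982 in cytoband 9q31.1, had log2 values of 8.33, 8.61 and 6.63 on the control, 3 h and 24 h arrays. Its 3 h difference of 0.28 was the highest of the 10 genes, and its 24 h difference of -1.70 left 30.8% of the control signal. SMC4, represented by cluster 8083709 in cytoband 3q26.1, had log2 values of 8.69, 8.79 and 7.36. Its difference was 0.10 at 3 h and -1.32 at 24 h, or 40.0% of the control signal, the smallest decrease among the 8 genes called lower. For both SMC genes the 3 h array gave the highest of the 3 values.

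The subunits found only in condensin I were all at least 2-fold lower at 24 h. NCAPG, a HEAT-repeat subunit represented by cluster 8094278 in cytoband 4p15.33, had log2 values of 9.37, 9.40 and 6.67 on the control, 3 h and 24 h arrays. Its 24 h difference of -2.70 was the lowest of the 10 genes, with 15.4% of the control signal, and it ranked 22 from the lowest of all genes. NCAPH, the kleisin, represented by cluster 8043602 in cytoband 2q11.2, had log2 values of 7.74, 7.89 and 5.79, and differences of 0.16 at 3 h and -1.95 at 24 h. NCAPD2, the other HEAT-repeat subunit, represented by cluster 7953351 in cytoband 12p13.3, had log2 values of 9.46, 9.34 and 7.93. Its differences were -0.12 at 3 h and -1.53 at 24 h, and it was the gene with the lowest 3 h difference among the 10. At 24 h NCAPH was at 25.9% and NCAPD2 at 34.6% of the control signal.

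Of the subunits found only in condensin II, both HEAT-repeat subunits were lower at 24 h and the kleisin was within 2-fold. NCAPD3, represented by cluster 7952830 in cytoband 11q25, had a log2 value of 8.79 in control cells, exactly the same value at 3 h and 6.96 at 24 h. Its 24 h difference was -1.83, or 28.2% of the control signal. NCAPG2, represented by cluster 8144153 in cytoband 7q36.3, had log2 values of 8.69, 8.68 and 7.17, with differences of -0.01 and -1.52, or 34.8% of the control signal at 24 h.

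NCAPH2, represented by cluster 8074082 in cytoband 22q13.33, had log2 values of 6.44, 6.56 and 6.35 in the same order. The 3 arrays thus spanned 0.20 on the log2 scale, and the 24 h difference of -0.09 left 94.0% of the control signal. It ranked 3606 from the lowest of all genes at 24 h, and the other gene within 2-fold, TOP2B, ranked 2435, while the 8 lower genes ranked between 22 and 265.

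The paired subunits of the complexes differed in how far they lay below control at 24 h. For the kleisins, the difference of NCAPH minus that of NCAPH2 came to -1.86 on the log2 scale. For the HEAT-repeat pair NCAPG and NCAPG2 it was -1.18, and for NCAPD2 and NCAPD3 it was 0.29, so that in this pair the condensin II subunit had the lower difference. The median of the 3 condensin I subunits was -1.95 and that of the 3 condensin II subunits was -1.52, a gap of -0.43 that rests on 3 genes each and has no error. Within condensin II the 24 h differences spread from -1.83 to -0.09, and within condensin I from -2.70 to -1.53.

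Against the background of all genes, the 8 of 10 genes lower at 24 h stand beside 406 of 19208, or 2.11%, at least 2-fold lower, and the 0 of 10 higher beside 1.53%. The median difference of the 10 genes was -1.62 and that of all genes 0.00. At 3 h, 0 of 10 genes were lower and 0 were higher, where 0.0469% and 0.344% of all genes were, and the median of the 10 genes was 0.07. Of the 10 genes 7 had a 3 h value above control, 2 below it and 1 equal to it, all within 0.28, and after centring on the 75th percentile of each array, or quantile normalization, 5 lay above and 5 below, since TOP2A and NCAPG turned to -0.06 and -0.05 and to -0.08 and -0.08, and NCAPD3 to -0.08 and -0.10.

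The comparison of the treated arrays with each other uses no control array. At 24 h, 8 of 10 genes were at least 2-fold lower than at 3 h, where 2.40% of all genes were, 0 of 10 were higher, where 0.807% were, and the median difference was -1.67. The differences ran from -2.73 in NCAPG, -2.70 in TOP2A, -2.10 in NCAPH and -1.98 in SMC2 to -1.83 in NCAPD3, -1.51 in NCAPG2 and -1.42 in both SMC4 and NCAPD2. TOP2B and NCAPH2 had differences of -0.36 and -0.20. The lower values at 24 h were thus present against either of the other arrays, but both comparisons rest on the same 24 h array.

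**Figure D2:**
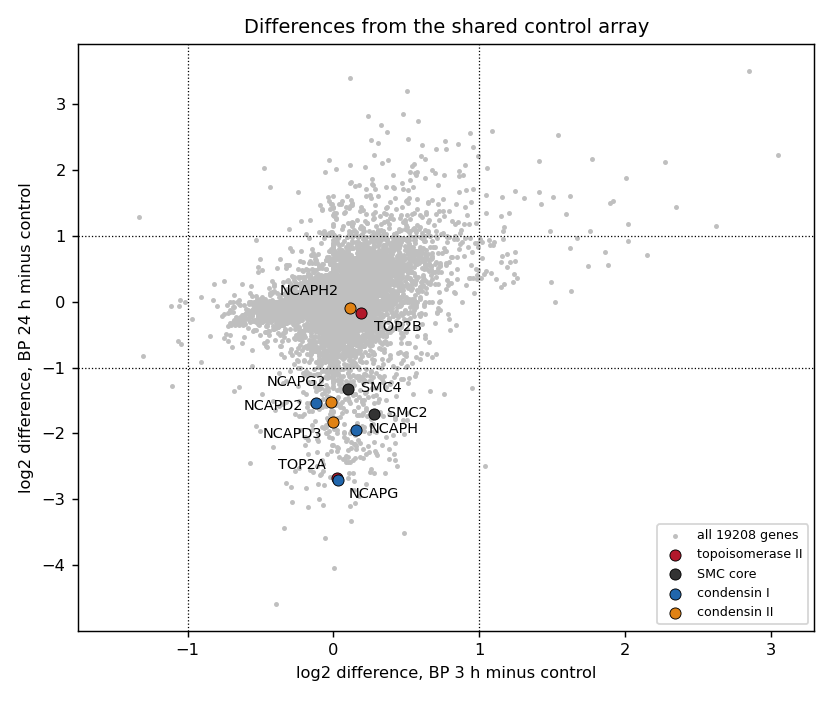
Log2 difference of BP 24 h minus control (vertical axis) against BP 3 h minus control (horizontal axis) for all 19208 genes in grey and the 10 genes in colour by complex, with dotted lines at 2-fold. Both axes use the same control array. The 10 genes lie between -0.12 and 0.28 on the horizontal axis, and 8 of them lie below the lower 2-fold line at 24 h.

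Cohesin, the related SMC complex that holds sister chromatids together, did not reach 2-fold in its core. Of 7 core and loader genes, 0 were lower and 0 higher at 24 h, with a median of -0.37. Over all genes, 2.11% were lower and 1.53% higher. The ATPases SMC1A and SMC3 had differences of -0.63 and -0.37, the kleisin RAD21 -0.75, and the loader subunit NIPBL 0.76. Of 11 genes that release, acetylate, protect or cleave cohesin, 6 were lower at 24 h and 0 higher, with a median of -1.31. These were ESCO2 (-3.06), an acetyltransferase of S phase, SGOL1 (-2.22) and SGOL2 (-1.91), the shugoshins now named SGO1 and SGO2, CDCA5 (-1.96), which encodes sororin, PTTG1 (-1.57), which encodes securin, and ESPL1 (-1.31), which encodes separase. In the same list ESCO1, the acetyltransferase that is also active outside S phase, had a difference of 0.50, and WAPAL, PDS5A and HDAC8 had exactly the control value at both times.

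All 6 genes of the SMC5/6 complex, which acts in DNA repair, were within 2-fold at 24 h, as were 18509 of all 19208 genes. The median of the 6 was 0.00, with SMC5 at 0.01 and SMC6 at -0.21. The genes with the largest 24 h differences were the SUMO ligase NSMCE2 at 0.56 and NSMCE4A at -0.42. At 3 h SMC5 was at -0.48 and NSMCE2 at 0.63. Of the 6 SMC ATPase genes of the 3 complexes, SMC2 and SMC4 were thus the ones past 2-fold at 24 h. Of 4 genes of meiotic cohesin, 2 were measured, REC8 (-0.03) and SMC1B (0.00), and STAG3 and RAD21L1 were found only in clusters with several symbols. SMC1B was at 2.82 on all 3 arrays, below the median of the control array.

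The other topoisomerases were all within 2-fold at 24 h. TOP1, which relaxes DNA through single-strand nicks, had log2 values of 8.90, 8.95 and 8.89 on the control, 3 h and 24 h arrays. TOP1MT, the mitochondrial enzyme, had exactly the control value at both times, as 41.1% of all genes had at 3 h and 46.7% at 24 h. TOP3A and TOP3B had 24 h differences of -0.69 and 0.23. This list of 10 genes also holds the partners of TOP3A and the enzymes that clear trapped topoisomerases from DNA, and its 24 h median was 0.00. At 24 h 3 of the 10 were lower and 0 higher, where 2.11% and 1.53% of all genes were. The lower genes were the helicase BLM (-2.17) and its partner RMI1 (-1.20), which work with TOP3A, and TDP1 (-1.07), which removes trapped TOP1. TTRAP, now named TDP2, which removes trapped topoisomerase II, had a difference of 0.28.

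Of 20 partners and regulators of condensin and topoisomerase II on mitotic chromosomes, 18 were measured, with a median of -1.49 at 24 h. At that time 10 were at least 2-fold lower and 1 was higher, where 2.11% and 1.53% of all genes were. Kinases that phosphorylate condensin in mitosis were among the lower genes, with CDC2, now named CDK1, at -2.94, PLK1 at -2.32 and AURKB at -1.43. The spindle kinase AURKA was at -2.18, and also lower was CCNB1 (-2.07), the gene of cyclin B1. MKI67, which encodes the Ki-67 protein that coats mitotic chromosomes, had a difference of -2.26. The chromokinesins KIF4A, which binds condensin I, and KIF22 were at -2.20 and -1.99, and BIRC5 and CDCA8, subunits of the chromosomal passenger complex, at -1.95 and -1.55, while INCENP, the scaffold of that complex, was at -0.78. TOPBP1, whose product binds topoisomerase II and acts in checkpoint signaling, was at -0.92. Also within 2-fold at 24 h were BAZ1B (-0.10), SETD8 (-0.27) and SET (-0.49), and AKAP8 and PTMA, both with exactly the control value. At 3 h, 0 of the 18 genes were past 2-fold in either direction, where 0.344% of all genes were higher and 0.0469% lower.

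MCPH1, which encodes microcephalin, an inhibitor of condensin II, was the 1 gene of this list at least 2-fold higher at 24 h. Its log2 values were 7.39, 7.61 and 8.99 on the control, 3 h and 24 h arrays, a difference of 1.60 and a 3.04-fold higher signal. The 24 h array was above both others. In the RefSeq genes of GRCh38.p14 the gene ANGPT2 lies within MCPH1, and its 24 h difference on its own cluster was 2.83. Whether transcripts of ANGPT2 have a part in the MCPH1 value was not tested.

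**Figure D3:**
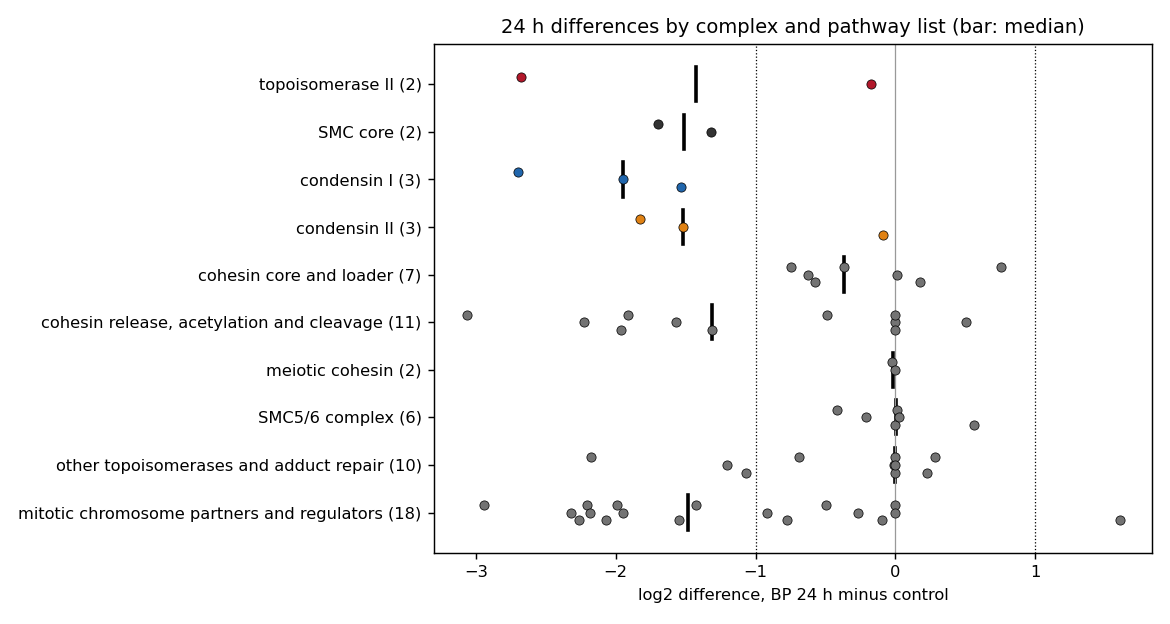
Log2 difference of BP 24 h minus control (horizontal axis) of each measured gene, as 1 point, by complex or pathway list (vertical axis, number of genes in parentheses), with a bar at the median and dotted lines at 2-fold. Medians are -1.95 for condensin I and -1.52 for condensin II, against -0.37 for the cohesin core and 0.00 for SMC5/6, and MCPH1 is the point at 1.60.

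The genes that start beside the condensin genes on the other strand were compared with them, a comparison chosen after the values of the condensin genes were seen. In the RefSeq table, 4 of the 9 matched genes had such a start within 1000 bases. DCAF16, listed on the array as C4orf30, starts 222 bases from NCAPG and had log2 values of 8.58, 8.68 and 8.03, a 24 h difference of -0.55 against -2.70 for NCAPG. IFT80, a gene of ciliary transport, starts 425 bases from SMC4 and had a difference of 0.72 against -1.32. VPS26B, a gene of endosome sorting, starts 704 bases from the nearer start of NCAPD3 and had a difference of -0.30 against -1.83, and MRPL51, a gene of the mitochondrial ribosome, starts 840 bases from NCAPD2 and had a difference of -0.05 against -1.53. All 4 neighbours were within 2-fold at 24 h, as were 18509 of all 19208 genes. Of the 4, 1 gene, IFT80, had a value above control.

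**Figure D4:**
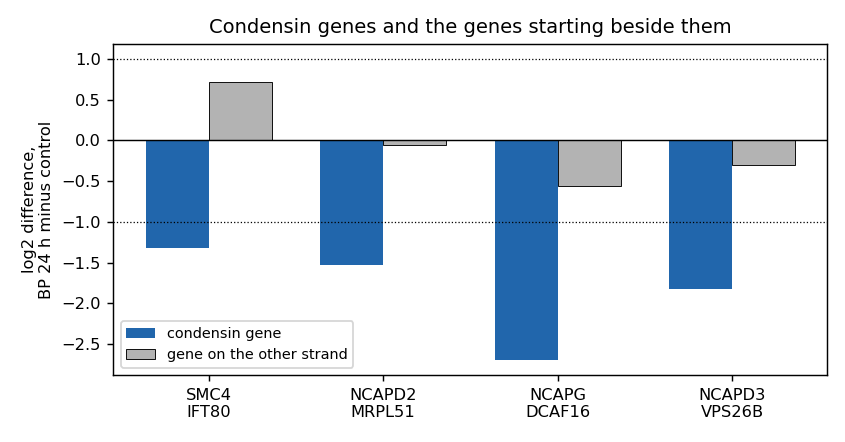
Log2 difference of BP 24 h minus control (vertical axis) of 4 condensin genes (blue bars) and of the gene that starts on the other strand within 1000 bases (grey bars), 1 array per condition, with dotted lines at 2-fold. The condensin genes lie between -2.70 and -1.32 and their neighbours between -0.55 and 0.72.

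The genes nearest to each topoisomerase were found by the distance between their pairs of differences, at 3 h and at 24 h, over 11993 other genes with a value above the median of the control array. With only 3 arrays, 1 of them shared by both differences, this likeness is a description. The 5 genes nearest to TOP2A were NCAPG at a distance of 0.027, the mitotic kinesin KIF14 at 0.049, the transmembrane protein gene TMEFF2 at 0.075, the exonuclease EXO1 at 0.11 and the replication factor GINS1 at 0.13, with 24 h differences between -2.72 and -2.60. The 5 nearest to TOP2B were the splicing factor USP39 (0.010), the telomere gene POT1 (0.014), the ribosomal RNA processing gene RRP15 (0.016), the glycine cleavage gene GCSH (0.016) and LOC647086 (0.018), with 24 h differences between -0.19 and -0.16.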

How the data were processed

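RNA of control LNCaP cells, and of cultures given BP at 70 µg/ml over 3 h or 24 h, was hybridized to 3 Affymetrix Human Gene ST arrays, 1 per condition. For 33297 transcript clusters per array the authors deposited log2 values. The processing notes of the submitters list RMA and Affymetrix Expression Console with no version, while MAS5.0 is given in the Methods, followed by scaling of each chip on its 50th percentile in GeneSpring, and which of these made the values is not settled. Comparison tables of the authors, with log2 ratios and folds, were not used apart from the gene symbols, gene titles and cytobands in 1 of them. Of that annotation the genome build is not stated in the labels or the Methods.

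The 20087 clusters with 1 symbol gave 19208 genes, with the cluster of highest mean kept for 627 genes that had several. Those with several symbols (1904) or no symbol (11306) stayed unnamed. Differences of log2 values were taken without further normalization or filter, and called at 2-fold, the threshold of the study. Named were the 10 genes, the listed pathway genes past 2-fold or, where fewer than 2 were, the 2 with the largest 24 h differences, the genes nearest to TOP2A and TOP2B, and further listed genes for context, chosen after their values were seen. The result for 1 gene of the marker list is not reported here. The genes and lists were chosen with earlier results of these data known. Promoters came from RefSeq, and motifs were searched on both strands. The alternatives were 3 scalings of the arrays, the mean of a gene's clusters, 1.5-fold and 3-fold thresholds, genes above the control median, and all clusters. The calculations were tested on simulated data with normal noise and planted shifts beyond 2-fold, without the equal values that many genes had here. Python 3.11.15, numpy 2.4.6, pandas 2.3.3 and matplotlib 3.10.9 were used.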

Additional observations from a re-analysis of the deposited data

Results flagged for a closer look

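For 7 of the 10 genes the deposited values lay above control at 3 h and below control at 24 h, opposite directions at the treatment times. All 10 genes lay below control at 24 h. Of all 19208 genes, 5996 lay above control at 3 h and 5356 below it at 24 h. The share of all genes with both was not computed. The differences of 24 h minus 3 h were -2.70 for TOP2A, -0.36 for TOP2B, -1.98 for SMC2, -1.42 for SMC4, -2.73 for NCAPG, -2.10 for NCAPH and -0.20 for NCAPH2. The difference between the times was not tested, as each time had 1 array. The values above control at 3 h were 0.28 or less, and those of TOP2A and NCAPG, 0.02 and 0.03, turned below 0 after centring on the 75th percentile of each array and under quantile normalization.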

How the results depend on the processing

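With 1 array per condition no sample could be left out, and no error could be set against a difference. No paired analysis was possible because each group holds 1 sample. A value was taken as moved when it changed by more than 0.20, the SD over genes of the differences at 3 h, and a count when it changed by over 1.5 times. The 3 h differences of the 10 genes, but for SMC2, were smaller than 0.20. A 3 h value could therefore change sign and not count as moved, as those of TOP2A and NCAPG did. Centring each array on its median or 75th percentile, quantile normalization and the mean of a gene's clusters moved none of the 79 values and counts computed under each. Across these 4, the 24 h difference of a member moved by at most 0.05. Each of the 10 genes had 1 cluster, so the mean of clusters could not change their values. At a 3-fold threshold 5 of the 10 genes were lower at 24 h, namely TOP2A, NCAPG, NCAPH, NCAPD3 and SMC2, and 1 of the other topoisomerase and adduct repair genes. Of all genes 21 were then higher and 0 lower at 3 h, and 88 higher and 191 lower at 24 h. At 1.5-fold the count of the 10 genes stayed at 8, while 1 gene each of cohesin regulation and of SMC5/6 was higher at 3 h, and 1 cohesin core gene was higher and 2 were lower at 24 h. Of all genes 297 were then higher and 77 lower at 3 h, and 862 higher and 776 lower at 24 h. Among genes above the control median 4 were at least 2-fold lower at 3 h. All 10 genes had a value above that median, so this setting could drop none of them. Over all transcript clusters 533 were higher and 112 lower at 3 h, and 661 higher and 599 lower at 24 h. TOP2B and NCAPH2 were within 2-fold under every setting run.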
